A study of Homo sapiens with 6 samples.

Results

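The 40 genes described here encode enzymes, or essential partners of enzymes, that place chemical marks on transfer RNA (tRNA). They were chosen by symbol as tRNA modification enzymes other than METTL1 and WDR4, and all 40 had a row among the 20308 genes measured. By the mark they serve, 13 act in methylation, 6 on the wobble uridine, 3 in dihydrouridine, 5 in pseudouridine, 3 in inosine, 2 in queuosine and 3 in t6A formation, and 5 make other bases.

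Transcripts were measured by RNA sequencing in LNCaP-AI, a prostate cancer line kept in androgen-deprived medium as a model of castration-resistant disease. All 6 libraries came from this line under androgen deprivation. In 3 libraries the cells carried a hairpin against METTL1 (shMETTL1), and in the other 3 a scrambled hairpin (shscramble). A single METTL1 hairpin was used, and the labels do not tell whether libraries within a group were grown apart, so p-values measure the spread between these libraries.

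Modified bases are numbered along the tRNA from the 5′ to the 3′ end. Those in the anticodon loop act on decoding: position 34, the wobble base, pairs with the last base of the codon, and position 37, next to the anticodon, steadies that pairing. Marks in the D arm, the T arm and the body of the molecule help it fold and protect it from decay. METTL1 with its partner WDR4 places N7-methylguanosine (m7G) in the variable loop. The comparison asks whether the genes for the other marks differed in level when METTL1 was silenced. The marks themselves were not measured, and neither were tRNA levels.

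The bases on which several of these enzymes act can be seen in mitochondrial tRNAs, which are encoded without introns. The sequences below are from the GENCODE 29 annotation on GRCh38, are written 5′ to 3′ with T for U, and are shown because they place marks of 5 of the classes in their sequence context. The whole gene MT-TK (tRNA for lysine) lies at chrM:8295-8364 on the plus strand. Its capitals mark position 9, methylated by TRMT10C with its partners, position 34, thiolated by TRMU, and position 37, which receives t6A made by YRDC with OSGEPL1.
MT-TK: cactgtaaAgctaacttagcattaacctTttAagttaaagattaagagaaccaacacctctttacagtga
The next 3 lines give the anticodon arm alone (positions 27 to 43), with positions 34 and 37 in capitals. MT-TQ (glutamine, chrM:4329-4400, minus strand) carries the TRMU mark at 34 and the methylated guanine of TRMT5 at 37. MT-TN (asparagine, chrM:5657-5729, minus strand) and MT-TY (tyrosine, chrM:5826-5891, minus strand) carry queuosine at 34, inserted by QTRT1 with QTRT2, and at 37 the former carries t6A and the latter the isopentenyl mark of TRIT1.
MT-TQ: gagaattTtgGattctc
MT-TN: cttagctGttAactaag
MT-TY: ttggactGtaAatctaa

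The deposited estimated counts were mostly whole multiples of a fixed step in each library, which was taken as the worth of 1 sequenced fragment. Between 89.5% and 90.8% of the values above 0.5 lay within 0.01 of such a multiple. On this reading the libraries held 2650767 to 4085355 fragments, with shMETTL1 replicate 1 the shallowest and shscramble replicate 2 the deepest. Replicates of a group differed by more than counting noise, with a chi-square per degree of freedom of 3.28 to 16.5, and the 2 largest values were those of shscramble replicate 2 against the other shscramble libraries. All 8 luminal prostate markers examined, such as KLK3 and KRT8, had a mean of at least 1 FPKM (fragments per kilobase, relative to library depth). Their summed level was 2322 to 2360 FPKM in shscramble and 1778 to 2042 in shMETTL1, while basal, leukocyte, endothelial and fibroblast markers summed to at most 16.8 FPKM in any library. KRT5, PTPRC, CD3E, CDH5 and DCN were at 0 in all libraries. The leukocyte sum, which came from CD68 alone, was 11.8 to 16.8 FPKM in shscramble and 5.997 to 8.11 in shMETTL1. The part of the luminal and CD68 differences in the results was not tested.

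The targeted gene was lower in each shMETTL1 library. METTL1 had 13.9, 18.5 and 21.0 FPKM in shscramble replicates 1, 2 and 3 and 8.35, 10.5 and 8.18 FPKM in shMETTL1. These values rested on 39, 56 and 70 fragments against 7, 27 and 21. By FPKM the mean was 50.7% of the control, with p = 0.1 in an exact two-sided permutation test, the smallest that 3 against 3 libraries can give. WDR4 averaged 6.27 ± 2.92 FPKM in the controls and 8.51 ± 2.24 after silencing (SD, n = 3), and its groups overlapped. The METTL1 hairpin shared a run of at most 10 bases with the transcripts of any of the 40 genes, reached in CDKAL1 and PUS10, out of a target of 21.

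All 40 genes were expressed in these cells. Mean levels in shscramble ran from 1.31 FPKM for ADAT3 to 62.4 for TYW3, with a median of 15.3 over the genes. Above 30 FPKM stood 4 genes: TYW3, a methyltransferase of the wybutosine pathway, TRMT10C, a subunit of mitochondrial RNase P, NSUN2, an m5C methyltransferase, and DUS1L, a dihydrouridine synthase. Their means in shscramble were 62.4 ± 14.1, 44.5 ± 7.94, 43.5 ± 3.41 and 38.4 ± 4.19 FPKM (SD, n = 3), and the libraries of neighbours in this order overlapped. Below 5 FPKM stood 6 genes, namely PUS10, TRMT61A, TRDMT1, both thiolation subunits CTU1 and CTU2, and ADAT3. CTU2 and ADAT3 also had the largest standard errors in the comparison below, 0.65 and 0.70, and CTU2 rested on 10, 24 and 7 fragments in shscramble and 6, 27 and 17 in shMETTL1.

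**Figure D1:**
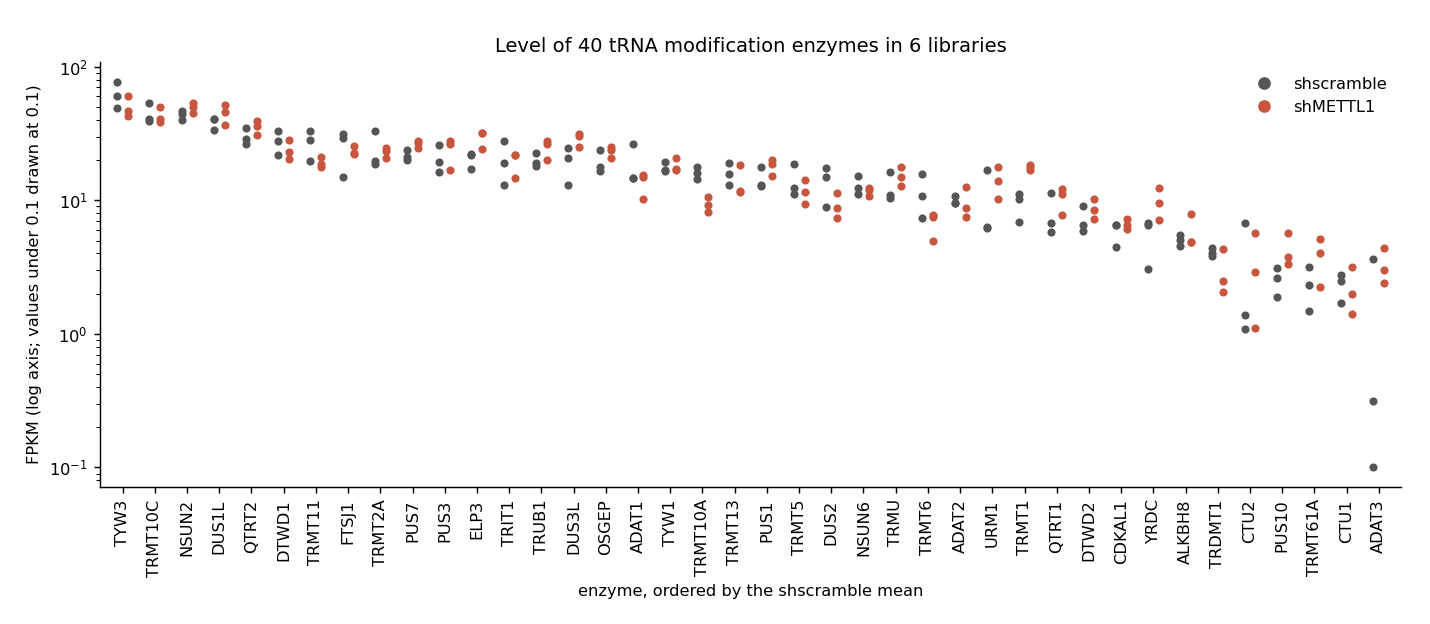
FPKM (log axis) of each of the 40 tRNA modification enzymes in the 3 shscramble (grey) and 3 shMETTL1 (red) libraries, 1 point per library, ordered by the shscramble mean. Levels fall from 62.4 FPKM for TYW3 to 1.31 for ADAT3, and for most genes the points of both groups overlap.

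No tRNA modification enzyme passed the adjusted test between shMETTL1 and shscramble. By limma on log2(FPKM + 0.5), 0 of the 40 were called at a Benjamini-Hochberg adjusted p under 0.05, against 0.123% of the 12156 genes tested. By edgeR on the rounded estimated counts 0 of 40 were called as well, against 6.33% of 11248 genes, and by edgeR on the whole fragments 0 of 40, against 6.16% of 11258 genes. DESeq2 on the estimated counts called 0 of 40 as well, against 6.23% of the genes with an adjusted p. The targeted gene METTL1, outside the 40, had an adjusted p of 0.127 by limma, 0.0368 by edgeR and 0.0305 by DESeq2, so limma did not call it either. The lowest adjusted p of the 40 was that of TRMT1, 0.133 by limma and 0.0842 by edgeR.

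This result depended on a single control library. Without shscramble replicate 2, the library that stood apart, edgeR called 6 of the 40 genes, 3 higher in shMETTL1 (TRMT1, URM1 and ADAT3) and 3 lower (TRMT6, TRMT11 and DTWD1), while the share called over all genes was 17.5%. On whole fragments it called 5, without DTWD1. Limma then called ADAT3 alone among the 40 and 1.56% of all genes. With any other library left out, limma called 3 to 6 and edgeR 270 to 443 of all genes, and 0 of the 40. So few calls by limma say little about the 40. The edgeR adjusted p-values without shscramble replicate 2 that follow for single genes come from the fit that called 17.5% of all genes.

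At an unadjusted p under 0.05, limma listed 6 of the 40. Higher in shMETTL1 were 5 (TRMT1, DUS3L, YRDC, ADAT3 and ELP3), or 12.5%, where 7.37% of all genes were, and TRMT10A alone was lower, or 2.5%, where 6.8% were. EdgeR also listed 6 at that level, with TRMT1, DUS3L and YRDC higher (7.5%, where 10.7% of all genes were) and TRMT10A, TRMT6 and DUS2 lower (7.5%, where 12.1% were). The cut-offs of the study, a p under 0.05 without adjustment and a fold above 1.5, applied here to the limma fit, left 4 higher by limma (TRMT1, DUS3L, YRDC and ADAT3), or 10% of the 40 against 4.59% of all genes, and 1 lower (TRMT10A), or 2.5% against 4.38%. FPKM did not overlap between the groups in 6 genes that were higher in shMETTL1 (TRMT1, DUS3L, YRDC, ELP3, PUS7 and PUS10), or 15.0% against 10.5% of all genes. It did not overlap in 1 gene that was lower (TRMT10A), against 9.33%.

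The median log2 fold change of the 40 genes was 0.18 by limma, with 24 above and 16 below 0, beside 0.022 over all genes tested. By edgeR the median of the 40 was 0.067, beside -6.74e-05. In 18 of the 40 genes (45.0%) the estimated count per unit of FPKM differed by more than 1.5 times between libraries, where 37.1% of all genes did so. FPKM divides by a transcript length estimated in each library, so in these genes a difference in FPKM need not be a difference in fragments. TRMT1, TRMT5, TRMT10A, DUS2, DUS3L and PUS7 are therefore also given in fragments per 1000000 fragments of the library (FPM). FPM does not use length. ELP3, with a highest count per FPKM 1.45 times the lowest, is given in FPM as well. In FPM the groups did not overlap in TRMT1, YRDC, ELP3 and PUS10, higher in shMETTL1, nor in TRMT10A, TRMT5 and DUS2, lower in shMETTL1. No share over all genes was taken for FPM.

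**Figure D2:**
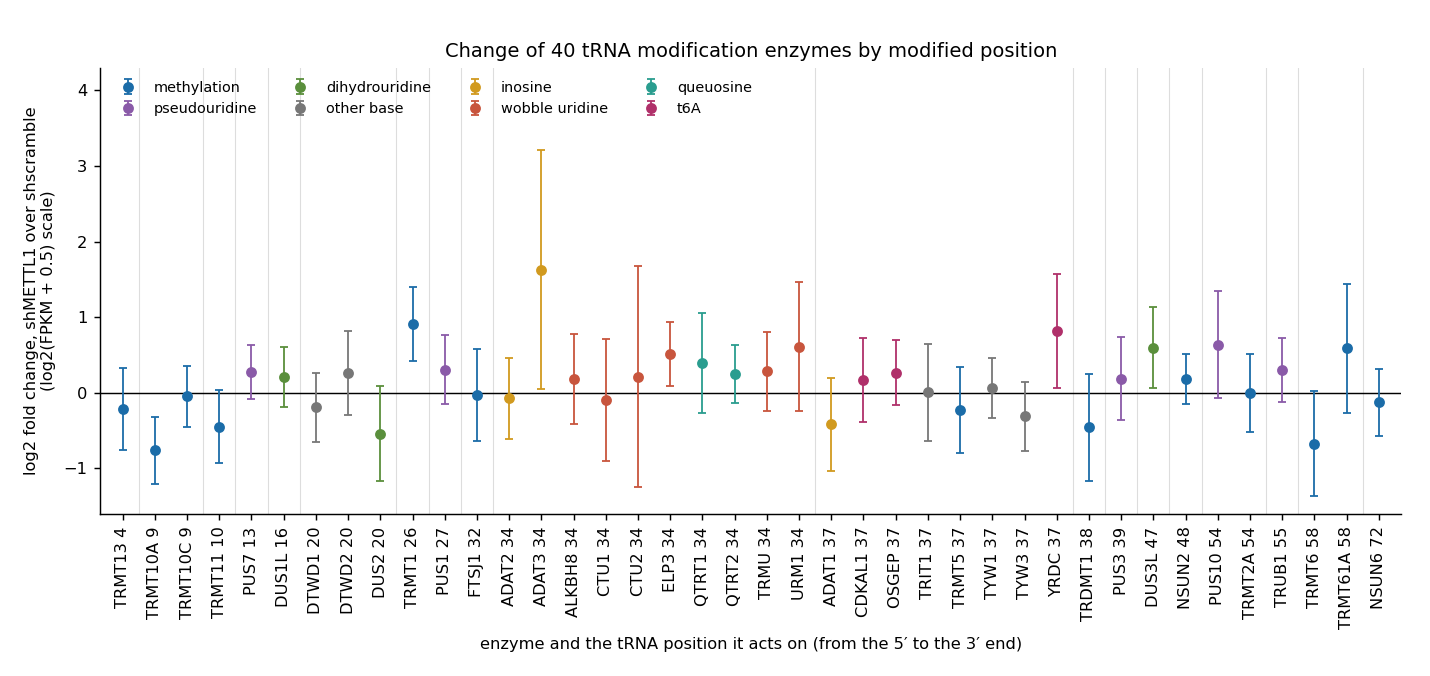
Log2 fold change of shMETTL1 over shscramble on the log2(FPKM + 0.5) scale (points) with the 95% interval from limma (bars), for the 40 enzymes in the order of the tRNA position they act on, coloured by class of mark. Intervals that leave out 0 are those of TRMT10A (position 9, below 0) and of TRMT1 (26), ADAT3 and ELP3 (34), YRDC (37) and DUS3L (47), above 0, and no adjusted p was under 0.05.

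The methyltransferases of the tRNA body held the members with the smallest limma p in each direction. By edgeR the smallest p among lower members was that of TRMT6, which acts at position 58. TRMT1, which dimethylates the guanine at position 26 in cytosolic and mitochondrial tRNA, had 6.92, 10.2 and 11.1 FPKM in shscramble and 17.01, 18.5 and 17.7 in shMETTL1. Each shMETTL1 library was above each shscramble library. Its log2 fold change was 0.91 ± 0.22 (SE; 1.87-fold) with an adjusted p of 0.133 by limma. Adjusted p-values over all settings tried ran from 0.0358 to 0.348, the lowest by edgeR on whole fragments without shscramble replicate 2. The gene (GRCh38 chr19:13104902-13117567, minus strand) had 16.6 ± 2.24 FPM in shscramble and 26.1 ± 5.56 in shMETTL1 (SD, n = 3), which did not overlap either, and the log2 fold change by edgeR was smaller, at 0.65. Without shscramble replicate 2, edgeR gave an adjusted p of 0.0391.

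TRMT10A, which methylates guanine at position 9 of cytosolic tRNA, stood the other way. It had 17.8, 16.1 and 14.4 FPKM in shscramble and 8.11, 9.24 and 10.6 in shMETTL1, so that each shMETTL1 library was below each control. The log2 fold change was -0.76 ± 0.20 (SE; 1.69-fold lower) by limma with an adjusted p of 0.157, and -0.62 by edgeR with an adjusted p of 0.142. In FPM, TRMT10A had 21.4 ± 5.08 in shscramble and 14.1 ± 1.84 in shMETTL1 (SD, n = 3), without overlap. Over all settings its adjusted p ran from 0.0885 to 0.471. TRMT10A (GRCh38 chr4:99546709-99564032, minus strand) overlaps MTTP on the opposite strand, and whether the counting used strand is not given in the sources used here. TRMT10C, which serves the same position in mitochondrial tRNA, differed by -0.05 with a 95% interval of -0.45 to 0.36. That interval excludes a 1.5-fold difference, and the difference between TRMT10A and TRMT10C was not tested.

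Of the 13 methyltransferases in the class, 10 had a log2 fold change below 0 by limma, and the class median was -0.13. These 10 include TRMT2A, FTSJ1 and TRMT10C, at -0.01, -0.03 and -0.05. By edgeR TRMT2A and FTSJ1 were above 0, at 0.08 and 0.19, and the class median was -0.10. By limma 5780 of the 12156 genes tested were below 0, as were 9 of 17 further tRNA methylation genes outside this set. The class was not tested as a set. TRMT11, which methylates guanine 10, averaged 26.95 ± 6.89 FPKM in control cells against 19.2 ± 1.64 after silencing (SD, n = 3), and its adjusted p was 0.377 by limma and 0.225 by edgeR. Without shscramble replicate 2, in which it was lowest of the controls at 19.6 FPKM, edgeR gave it an adjusted p of 0.012. By limma its adjusted p was 0.0935 without that library and 0.526 to 0.656 with any other library left out. The m5C enzymes of DNMT and NSUN type were close to their controls or variable. NSUN2, which acts at position 48 and its neighbours, differed by 0.18 (95% interval -0.15 to 0.52), NSUN6, which acts at position 72, by -0.13 (-0.58 to 0.32), and TRDMT1 (DNMT2), which acts at position 38, by -0.46 (-1.17 to 0.25). TRMT2A, which makes the methyluridine of position 54, differed by -0.01 (-0.52 to 0.51). The 2′-O-methyltransferases TRMT13 (position 4) and FTSJ1 (position 32) differed by -0.22 and -0.03, and TRMT5, which methylates guanine 37, by -0.23. In FPM, TRMT5 had 45.0 ± 3.80 in shscramble and 37.6 ± 3.31 in shMETTL1 (SD, n = 3), without overlap, while its FPKM overlapped.

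The m1A58 methyltransferase is built of TRMT6, which binds the tRNA, and TRMT61A, which carries the catalytic site. TRMT6 had 10.9, 7.37 and 15.8 FPKM in shscramble and 7.70, 4.93 and 7.57 in shMETTL1, and the groups overlapped through shscramble replicate 2. Its log2 fold change was -0.67 ± 0.31 by limma (SE; adjusted p = 0.364) and -0.67 by edgeR (adjusted p = 0.132, or 0.0128 without shscramble replicate 2). TRMT61A had 2.32, 3.18 and 1.47 FPKM in shscramble and 4.01, 2.23 and 5.12 in shMETTL1, and its log2 fold change was 0.59 ± 0.38 (SE; adjusted p = 0.506). The estimates for the subunits thus had opposite signs. The log2 ratio of TRMT6 to TRMT61A was 2.23, 1.21 and 3.42 in shscramble and 0.94, 1.14 and 0.56 in shMETTL1. Each shMETTL1 library was below each control, though shMETTL1 replicate 2 (1.14) only narrowly below shscramble replicate 2 (1.21). TRMT61A rested on 33, 48 and 21 fragments in shscramble and 39, 28 and 70 in shMETTL1. The mean ratio differed by -1.40 (exact permutation p = 0.1, the smallest possible; adjusted p = 0.4 over the 4 subunit pairs tested). From the estimated counts the difference was -1.29 with the same p-values, and by FPKM it was -0.84 without shscramble replicate 3.

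**Figure D3:**
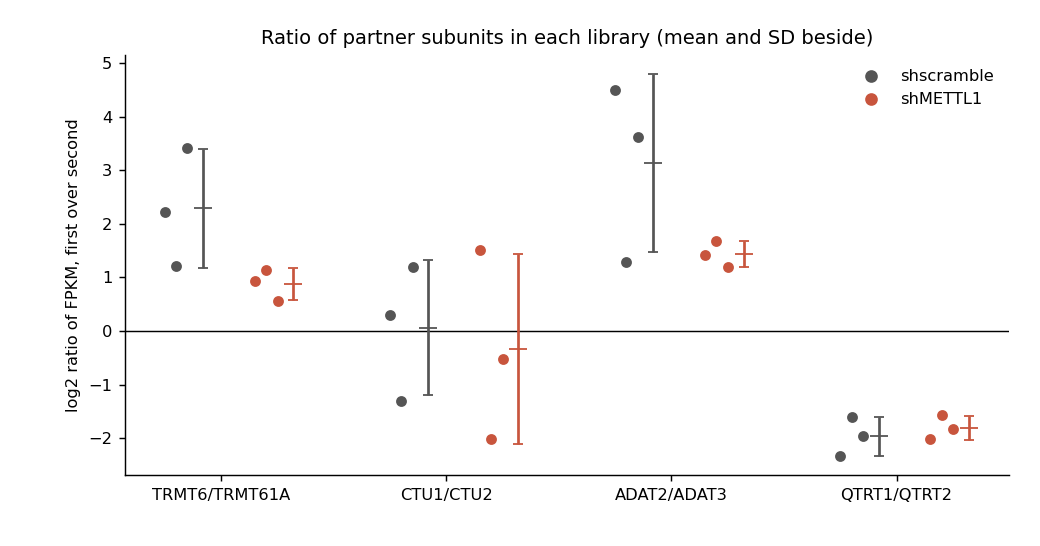
Log2 ratio of the FPKM of partner subunits in each library (points) with mean and SD, for 4 enzymes of 2 subunits, in shscramble (grey) and shMETTL1 (red). Only for TRMT6/TRMT61A do the groups not overlap, by a narrow margin between replicate 2 of each group, with means of 2.29 in shscramble and 0.88 in shMETTL1.

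The wobble uridine enzymes build the mark of position 34 in steps. Elongator, of which ELP3 is the catalytic subunit, adds the first group, ALKBH8 methylates it, and URM1 with CTU1 and CTU2 exchanges oxygen for sulphur in the cytosol, as TRMU does in mitochondria. ELP3 had 22.2, 17.1 and 21.9 FPKM in shscramble and 31.7, 32.2 and 24.1 in shMETTL1, without overlap. Its log2 fold change was 0.51 ± 0.19 (SE; adjusted p = 0.284) by limma and 0.30 by edgeR (adjusted p = 0.323). The estimated count per FPKM of ELP3 averaged 5.41 in shscramble and 4.88 in shMETTL1. In FPM the gene had 31.7 ± 3.95 and 39.2 ± 2.45 (SD, n = 3).

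URM1, the sulphur carrier, had 6.36, 16.9 and 6.20 FPKM in shscramble and 17.7, 10.3 and 14.04 in shMETTL1. Only shscramble replicate 2 lay within the shMETTL1 range, and without that library the log2 fold change was 1.09 by edgeR (adjusted p = 0.0174), against 0.43 (adjusted p = 0.491) with it. CTU1 had 1.70, 2.75 and 2.50 FPKM in shscramble and 3.17, 1.42 and 2.01 in shMETTL1. CTU2 had 1.39, 6.75 and 1.09 against 1.11, 5.72 and 2.88 FPKM. Both overlapped between the groups, on few fragments, and the log2 ratio of CTU1 to CTU2 differed by -0.41 (exact permutation p = 0.8). TRMU differed by 0.28 (95% interval -0.24 to 0.80) and ALKBH8 by 0.18 (-0.42 to 0.78).

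Inosine at position 34 is made by the ADAT2 and ADAT3 heterodimer, in which ADAT2 is catalytic, and inosine at position 37 of alanine tRNA begins with ADAT1. ADAT3 had the largest estimate of the 40 genes and the weakest support in reads. Its fragments numbered 0, 21 and 2 in shscramble and 19, 12 and 19 in shMETTL1, and a count of 0 allows up to 3 fragments, for counting error only. In FPKM these were 3.61 and 0.31 in shscramble replicates 2 and 3, and 4.38, 2.41 and 2.99 in shMETTL1. All shMETTL1 libraries exceeded shscramble replicates 1 and 3, and replicate 2 lay among them. The log2 fold change was 1.63 ± 0.70 (SE; 3.09-fold) with an adjusted p of 0.346 by limma and 0.227 by edgeR.

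The size of this difference depended on the pseudocount and on the controls. It was 2.61 with a pseudocount of 0.1, 1.20 with 1, and 1.01 without shscramble replicate 1. Without shscramble replicate 2 it was 2.53 by limma (adjusted p = 0.046) and 4.03 by edgeR (adjusted p = 0.00346). ADAT3 (GRCh38 chr19:1905378-1913447) overlaps SCAMP4 on the same strand, so that fragments of the shared part can be assigned to either. SCAMP4 had 16.2, 21.7 and 14.1 FPKM in shscramble and 21.5, 25.8 and 22.1 in shMETTL1. Replicate 2 was the highest of the controls for both genes. Within shMETTL1, replicate 2 was the highest for SCAMP4 and the lowest for ADAT3. The part of SCAMP4 in the ADAT3 values was not tested. The catalytic partner ADAT2 had 10.8, 9.48 and 9.49 FPKM in shscramble and 12.5, 8.81 and 7.48 in shMETTL1, a difference of -0.07 (95% interval -0.61 to 0.46). The log2 ratio of ADAT2 to ADAT3, with 0.5 added to each, differed by -1.71 (exact permutation p = 0.3). From the estimated counts it differed by -2.92 (exact permutation p = 0.2), and both rest on a control library with 0 ADAT3 fragments. ADAT1 differed by -0.42 (95% interval -1.03 to 0.20).

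Position 37 was served by 8 of the 40 genes, with a median log2 fold change of 0.03. For t6A, YRDC makes the activated threonine in cytosol and mitochondria, OSGEP transfers it to cytosolic tRNA within the KEOPS complex, and OSGEPL1 transfers it in mitochondria. CDKAL1 then adds a methylthio group to t6A of a lysine tRNA. YRDC had 3.04, 6.52 and 6.74 FPKM in shscramble and 9.52, 12.5 and 7.13 in shMETTL1. Each shMETTL1 library was above each control, though shMETTL1 replicate 3 only narrowly. The log2 fold change was 0.82 ± 0.34 (SE; 1.77-fold; adjusted p = 0.327) by limma and 0.81 (adjusted p = 0.116) by edgeR. YRDC (GRCh38 chr1:37802944-37808185, minus strand) kept a near-constant count per FPKM, with a highest value 1.02 times the lowest, and overlaps C1orf122 on the opposite strand. OSGEP averaged 19.4 ± 3.91 and 23.2 ± 2.03 FPKM (SD, n = 3; 0.27, 95% interval -0.16 to 0.69), and CDKAL1 differed by 0.17 (-0.38 to 0.72).

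OSGEPL1, from the list of 49 other tRNA modification genes that had a row, was the member of the t6A branch that passed a test. It had 12.2, 10.4 and 12.4 FPKM in shscramble and 7.73, 2.52 and 4.47 in shMETTL1, on 65, 73 and 58 fragments against 27, 18 and 34. All shMETTL1 libraries were below all controls. OSGEPL1 fell by edgeR (log2 fold change -1.05, 2.07-fold, adjusted p = 0.0412) and did not pass by limma (-1.28 ± 0.35, SE; adjusted p = 0.175) or by DESeq2 (adjusted p = 0.0517). Adjusted p-values over all settings ran from 0.0147 to 0.383. Within the KEOPS complex, the kinase TP53RK was 3.598, 4.66 and 5.12 FPKM in shscramble and 7.17, 6.10 and 6.56 in shMETTL1 (adjusted p = 0.364 by limma). LAGE3, GON7 and TPRKB differed by 0.26, 0.48 and -0.13 with overlapping groups.

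**Figure D4:**
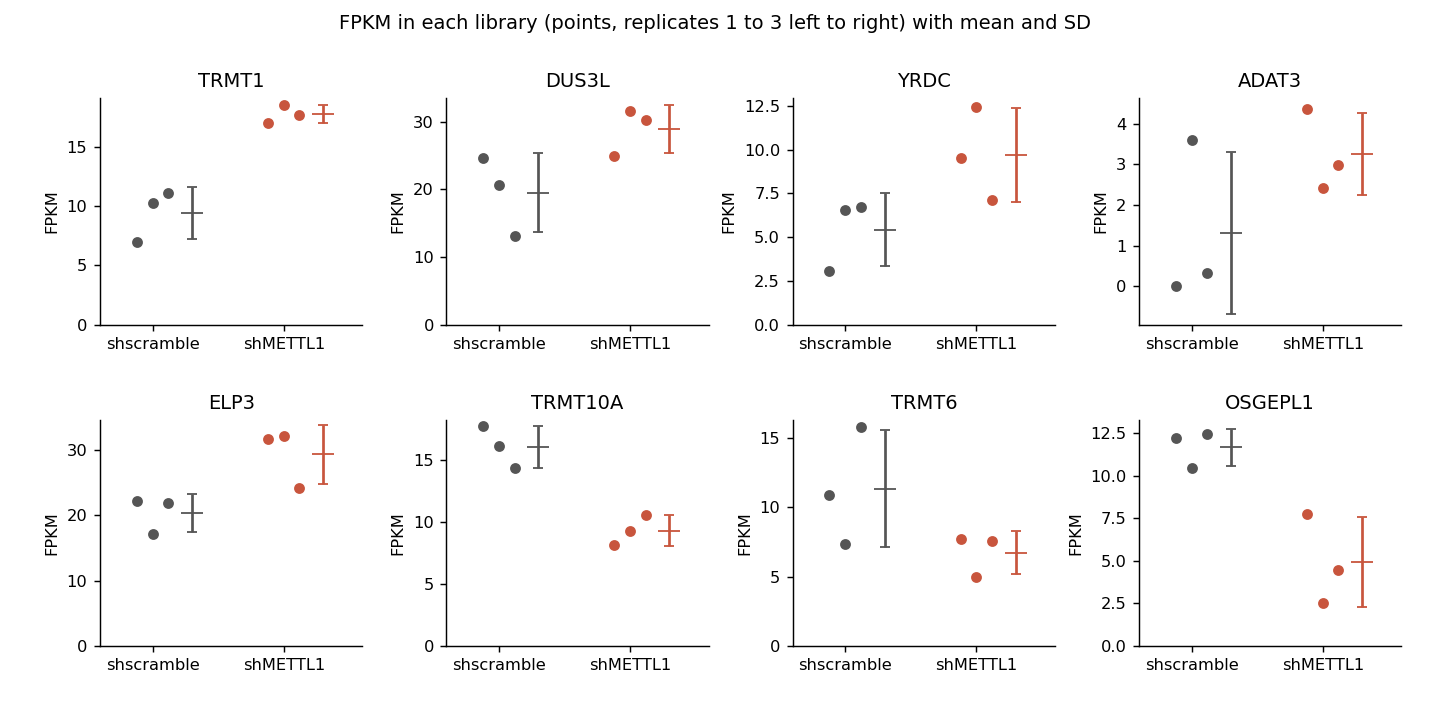
FPKM in each library (points, replicates 1 to 3 from left to right) with mean and SD beside them, for 7 of the 40 enzymes and for OSGEPL1, each panel on its own axis. TRMT1, DUS3L, YRDC and ELP3 are higher and TRMT10A and OSGEPL1 lower in all shMETTL1 libraries, while ADAT3 and TRMT6 overlap through shscramble replicate 2.

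The other genes of position 37 were near their controls or variable. TRIT1, which adds the isopentenyl group, averaged 19.9 ± 7.41 FPKM in the controls and 19.5 ± 4.23 after silencing (SD, n = 3), a difference of 0.01 (95% interval -0.63 to 0.65). For wybutosine, found in phenylalanine tRNA, TYW1 differed by 0.06 (-0.34 to 0.45), and part of its reads may belong to a near-identical copy not analysed here. TYW3 had 77.3, 49.2 and 60.7 FPKM in shscramble and 42.8, 46.8 and 60.3 in shMETTL1, a difference of -0.31 (adjusted p = 0.512 by limma), and had the smallest p of the 5 enzymes of other bases. The acp3U enzymes of position 20 had estimates of opposite sign, at -0.19 for DTWD1 and 0.26 for DTWD2. DTWD1 passed by edgeR without shscramble replicate 2 (log2 fold change -0.54, adjusted p = 0.0487) and not with it (-0.37, adjusted p = 0.277). On whole fragments its adjusted p without that library was 0.0501.

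Dihydrouridine, a base without a rigid ring that loosens the fold, is made in the D arm by DUS1L and DUS2 and in the variable loop by DUS3L. DUS3L, which acts at position 47, had 24.6, 20.7 and 13.1 FPKM in shscramble and 24.9, 31.6 and 30.2 in shMETTL1. The groups did not overlap, but shMETTL1 replicate 1 exceeded shscramble replicate 1 by a small margin, and in FPM the groups overlapped (15.6 ± 3.64 and 24.1 ± 7.79; SD, n = 3). The log2 fold change was 0.60 ± 0.24 (SE; 1.51-fold; adjusted p = 0.318) by limma and 0.62 (adjusted p = 0.176) by edgeR. DUS3L (GRCh38 chr19:5784832-5791238, minus strand) overlaps the gene AC011499.1 on the same strand, which leaves its assignment of fragments uncertain. DUS2, which acts at position 20, averaged 13.8 ± 4.39 FPKM in the controls and 9.14 ± 2.00 after silencing (SD, n = 3), with overlap. Its log2 fold change was -0.54 by limma (adjusted p = 0.415) and -0.49 by edgeR (adjusted p = 0.187). In FPM, DUS2 had 22.05 ± 1.94 in shscramble and 15.7 ± 3.12 in shMETTL1 (SD, n = 3), without overlap. DUS1L differed by 0.21 (95% interval -0.19 to 0.61).

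All 5 pseudouridine synthases had a log2 fold change above 0 by limma, from 0.19 to 0.63 with a median of 0.30, and none passed the test. By edgeR the class median was 0.13. PUS10, which modifies position 54, had 2.63, 3.11 and 1.89 FPKM in shscramble and 3.76, 3.34 and 5.68 in shMETTL1, without overlap, on 28, 34 and 35 fragments against 28, 36 and 60. Its log2 fold change was 0.63 ± 0.31 (SE; adjusted p = 0.395). PUS7, which acts at position 13, also did not overlap in FPKM, with 21.0, 20.1 and 23.8 in shscramble and 27.7, 26.8 and 24.4 in shMETTL1. Its FPM did overlap, at 60.9 ± 12.4 and 61.8 ± 3.52 (SD, n = 3), and the log2 fold change was 0.28 by limma and 0.01 by edgeR. TRUB1 (position 55) differed by 0.30, PUS1 (27) by 0.31 and PUS3 (39) by 0.19, with overlapping groups.

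Queuosine, which animals take up as queuine from diet and gut microbes, is inserted at position 34 by the catalytic subunit QTRT1 with QTRT2. QTRT1 had 5.76, 11.4 and 6.80 FPKM in shscramble and 7.73, 12.2 and 11.2 in shMETTL1. QTRT2 had 28.9, 34.6 and 26.4 FPKM in shscramble and 31.1, 36.2 and 39.6 in shMETTL1. Both overlapped between the groups, with differences of 0.39 (adjusted p = 0.573) and 0.25 (adjusted p = 0.535) by limma. The noncatalytic subunit was the more abundant in each library, and the log2 ratio of QTRT1 to QTRT2 averaged -1.96 ± 0.36 in shscramble and -1.80 ± 0.22 in shMETTL1 (SD, n = 3; exact permutation p = 0.6).

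By region of the tRNA, the 20 genes of the anticodon loop had a median log2 fold change of 0.18, the 7 of the T arm and variable loop 0.30, the 6 of the D arm 0.01, the 5 of the body 0.19 and the 2 of the acceptor stem -0.17. At position 34, 8 of 10 genes were above 0, with a median of 0.27. Of the genes for both compartments or mitochondria alone, 7 had a median of 0.31 and 2 of 0.12, beside 0.17 for the 31 cytosolic genes. By edgeR the medians were 0.09 for the anticodon loop, 0.13 for the T arm and variable loop, -0.18 for the D arm, 0.015 for the body and -0.15 for the acceptor stem. They were 0.015 for the cytosolic genes, 0.18 for those of both compartments and 0.12 for the mitochondrial. These medians carry no test.

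The intervals state how much could have been missed. In 5 of the 40 genes (NSUN2, NSUN6, TRMT2A, TRMT10C and TYW1) the 95% interval of the difference by limma lay within a 1.5-fold change in either direction, and in 26 of 40 within a 2-fold change. For the remaining genes a 2-fold difference in at least 1 direction was inside the interval.

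The 47 further genes of tRNA modification with a row, leaving out METTL1 and WDR4, had a median log2 fold change of 0.20, with 28 above and 19 below 0. Limma called 0 of them (0.123% of all genes), although without adjustment 1 higher and 3 lower had a p under 0.05, where 7.37% and 6.8% of all genes did. OSGEPL1 alone passed by edgeR, where 6.33% of all genes passed. Past the thresholds of the study by limma stood OSGEPL1 and METTL8, both lower, where 4.38% of all genes were lower. None was higher, where 4.59% of all genes were. METTL8, which makes m3C at position 32 of mitochondrial tRNA, had 28.7, 38.9 and 45.3 FPKM in shscramble and 25.9, 18.4 and 24.01 in shMETTL1, without overlap, with a log2 fold change of -0.70 ± 0.21 (SE; adjusted p = 0.203). By edgeR it was -0.30, and its estimated count per FPKM averaged 7.96 in shscramble and 10.96 in shMETTL1.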

How the data were processed

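RNA sequencing was performed on 6 LNCaP-AI libraries, 3 shMETTL1 and 3 shscramble. The submitters' notes list HISAT2 2.0.4, cutadapt 1.9.3, Cuffdiff and Cufflinks and the build hg19, without saying what each did. The authors deposited 1 FPKM value and 1 estimated count per gene and library. Coordinates and tRNA sequences came from GENCODE 29 (GRCh38), used for no count.

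Genes averaging 0.5 FPKM or more entered a test with limma 3.58.1 (R 4.3.3; trend, robust) on log2(FPKM + 0.5), a scale that understates changes of low genes. The estimated counts deposited by the authors were rounded for edgeR 4.0.16 (quasi-likelihood, TMM, filterByExpr) and DESeq2 1.42.0. Counts divided by the worth of 1 fragment were tested after seeing the data. Tests were two-sided, with Benjamini-Hochberg adjustment over all genes tested; subunit ratios were compared by exact permutation. The scripts were tested on simulated data.

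The members and gene lists were chosen with earlier results of these data known. Values per library are given for genes called or past the thresholds of the study, the smallest limma p of each class, and partner subunits; PUS7, URM1 and the KEOPS genes were added after their values were seen. Replicate numbers did not pair the libraries. Left out were a near-identical copy of TYW1 and any value column not described above (0). A luminal marker beyond the 8 given is not reported here.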

Additional observations from a re-analysis of the deposited data

How the results depend on the processing

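Of 656 values of single genes under other settings, 651 kept their side of the threshold and 32 changed sign. Each sign change was from a log2 fold change no larger than its standard error. The settings were pseudocounts of 0.1 and 1, no filter, a mean FPKM of at least 1, median-ratio scaling, edgeR, DESeq2 and whole fragments. The replicate block and each library left out were added by limma only. METTL1 passed by edgeR and DESeq2, and ADAT3 by limma without shscramble replicate 2. EdgeR fits with a library left out were not among the 656 values. Without shscramble replicate 2, edgeR called 6 of the 40, and 5 on whole fragments. All genes called numbered 15 by limma, 4 without a filter, 6 with the replicate block, 712 by edgeR, 713 by DESeq2 and 3 to 189 with a library left out. By edgeR they numbered 712, 1094 without a filter, and 270 to 1989 with a library left out. Genes past the thresholds of the study numbered 1090 and, with a library left out, 957 to 1708, those among the 40 enzymes 5 and 2 to 9, and those at an unadjusted p under 0.05, 6 and 2 to 10 by limma and 3 to 12 by edgeR. Enzymes called numbered 0 to 1 by limma and 0 to 6 by edgeR with a library left out, the highest without shscramble replicate 2. The median log2 fold change of the enzymes, 0.18, was 0.067 by edgeR and 0.071 by DESeq2. With a library left out the log2 ratio of TRMT6 to TRMT61A differed by -1.94 to -0.84, that of ADAT2 to ADAT3 by -2.63 to -1.02, that of CTU1 to CTU2 by -1.33 to 0.43 and that of QTRT1 to QTRT2 by -0.0197 to 0.34. The cause of these differences was not tested. Libraries of the same number had correlated deviations of -0.0238 to 0.0526, so the numbers name the libraries only. The replicate block called 0 of the 40 enzymes by limma and by edgeR. At 2650767 to 4085355 fragments per library, genes such as ADAT3 and CTU2 rested on few fragments, which limits what differences could be seen.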
